A study of Mus musculus with 26 samples.

Results

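The 34 genes described here serve the building of cholesterol and of long-chain fatty acids in mouse leukaemia cells. They were taken by symbol from the table of counts per gene, by matching Ensembl IDs without their version, and all 34 were found among its 48795 genes. By role they are 7 genes of the mevalonate steps, 11 genes of the steps from squalene to cholesterol (together 18 sterol enzymes), 5 genes of the SREBP factors and their regulators, 5 genes of fatty acid synthesis, and 6 genes of the LXR receptors, their targets and sterol transport. The list does not hold every enzyme of these routes. RNA-seq covered 24 libraries of cultured C57BL/6 myeloid progenitors, 12 transformed by Hoxa9 plus Meis1 (H9M) and 12 by MN1. In each model, control (CTL) and LSD1 knockout (KO) cells were kept without ATRA (W/O ATRA) or with 1 µM all-trans retinoic acid (ATRA), which gives 8 groups of 3 libraries. All groups grew in fetal calf serum with IL-3, IL-6 and SCF, and knockout was induced by 4-hydroxy-tamoxifen at 0.1 µM over 72 hours. The strain field reads CreERT2-;LSD1TM1Schuele for every library, knockouts included. The labels do not give which stretch of the gene is removed, how long ATRA was present, or whether a model is a single clone. Whether controls received 4-hydroxy-tamoxifen is not given either, so knockout and that drug cannot be told apart in the knockout comparisons below. The labels also leave unsaid whether replicates are separate cultures, so the p-values measure only the spread between these libraries.

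Cells make sterols from acetyl-CoA by way of mevalonate, farnesyl diphosphate and squalene, and fatty acids from the same acetyl-CoA by way of malonyl-CoA. The SREBP transcription factors switch on the genes of both routes when membrane sterol is low, because SCAP then carries them to the Golgi for cleavage, while the INSIG proteins hold SCAP back when sterol is plentiful. The LXR receptors bind oxysterols as partners of RXR and drive sterol export through ABCA1 and ABCG1 as well as transcription of Srebf1. ATRA is the ligand of the retinoic acid receptors, which also pair with RXR. LSD1, the product of Kdm1a, removes methyl groups from lysine 4 of histone H3.

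Library totals lay between 22402558 and 32674685 counts, and levels are given as CPM, a count divided by that total and multiplied by 1000000. Kdm1a was at 138 CPM or more in every control library. In H9M knockouts it was at 0.937 to 0.998 CPM without ATRA and at 10.3 to 11.5 CPM with it, and in MN1 knockouts at 1.28 to 1.58 and 1.85 to 2.36 CPM. Residual Kdm1a thus differed between the groups behind the ATRA comparison in H9M knockouts and the H9M interaction, and its part in those results was not tested. Of the 48795 genes, 14663 passed the filter on low counts, and all 34 members were among them. A gene was called where edgeR's quasi-likelihood test gave an adjusted p under 0.05. Summed over 12 monocyte and macrophage markers, H9M libraries without ATRA went from 1479-1486 CPM in controls to 4056-4194 CPM in knockouts, and MN1 libraries from 582-591 to 1051-1063 CPM. The sum over 12 neutrophil markers went from 164-174 to 1721-2025 CPM in H9M and from 30.1-35.1 to 513-551 CPM in MN1. The sum over 8 mast cell and basophil markers went from 95.3-99.2 to 261-269 CPM in H9M and from 1776-1822 to 3786-3864 CPM in MN1. Of these 8 markers 3 rose and 1 fell in H9M, where Fcer1a, Tpsb2 and Cma1 had no count, and 8 rose in MN1. Of 20 cell cycle genes, 12 fell and 1 rose with knockout in H9M, where 25.4% of all genes tested fell and 26.1% rose, and 18 fell and 1 rose in MN1, where 26.3% fell and 28.7% rose. The knockout results below come from the same libraries as these marker and cell cycle changes, and the part of those changes in them was not tested. Markers of fat cells, which make fatty acids at a high rate, summed to at most 0.311 CPM in any library, and Cidec was at 0 in all groups. In bulk RNA, fewer cells of a type and less RNA per cell cannot be told apart. The column names give all H9M libraries 1 code and all MN1 libraries a different code, and no label says what it marks, so model and code cannot be told apart in level.

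In H9M cells without ATRA, most listed genes of the sterol route and all 5 of fatty acid synthesis were lower in LSD1 knockout libraries. Of the 34 members, 23 fell and 2 rose, where 25.4% of all genes tested fell and 26.1% rose, and the median log2 fold change was -0.26 over the members and 0.00 over all genes. Among the 18 sterol enzymes 12 fell and only Ebp rose, and among the 5 SREBP genes and regulators 4 fell and Insig2 rose. The 6 genes of LXR and sterol transport had 2 falls, Abcg1 and Stard4. The changes were of moderate size, from 1.83-fold lower (Scd1) to 1.31-fold higher (Insig2).

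Acat2 (ENSMUSG00000023832.13, chr17:12943042-12960725, gene spans here and below from RefSeq on GRCm38.p6, which is mm10) encodes the cytosolic thiolase that joins acetyl-CoA units at the entry of the route. Its level was 70.8, 75.3 and 77.9 CPM in the H9M control libraries and 44.9, 47.9 and 44.7 CPM in the knockouts, so that the groups lay far apart. The difference was 1.61-fold lower (log2 fold change -0.69 ± 0.04, SE, adjusted p = 1.3e-14). Hmgcs1, the HMG-CoA synthase of the next step, read 115, 114 and 115 CPM in controls and 105, 116 and 111 CPM in knockouts. The ranges overlapped and the log2 difference was -0.03 ± 0.05 (adjusted p = 0.582). Mvk and Pmvk, the kinases that charge mevalonate, fell by 0.27 and 0.30 on the log2 scale. Mvd, which decarboxylates the product, stood at 88.2, 90.8 and 95.1 CPM in controls and at 69.99, 63.6 and 69.4 CPM in knockouts, 1.34-fold lower without overlap (log2 -0.42 ± 0.05, adjusted p = 9.07e-09). Idi1, the isomerase of the isoprene unit, and Fdps, which assembles farnesyl diphosphate, fell by 0.40 and 0.70. Fdps was scarce in these libraries, with 10.6, 10.3 and 10.9 CPM in controls and 5.76, 5.87 and 7.62 CPM in knockouts, and its SE of 0.12 was among the widest of the sterol enzymes.

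Beyond squalene, knockout acted unevenly along the route. Fdft1 and Sqle, squalene synthase and squalene epoxidase, gave log2 differences of 0.01 ± 0.04 (adjusted p = 0.844) and -0.08 ± 0.04 (adjusted p = 0.0653). Lss (ENSMUSG00000033105.12, chr10:76531565-76557139), which closes the sterol rings to lanosterol, went from 85, 85.6 and 91 CPM to 55.3, 53 and 56.9 CPM and was 1.57-fold lower (log2 -0.65 ± 0.05, adjusted p = 5.88e-13). Tm7sf2 (ENSMUSG00000024799.14, chr19:6062821-6067850), a sterol reductase of the lanosterol branch, was 36.9, 40.7 and 38.9 CPM in controls and 22.5, 23.3 and 23.9 CPM in knockouts. All 3 knockout libraries were below all 3 controls, a 1.66-fold lower level (log2 -0.73 ± 0.06, adjusted p = 5.61e-12). Nsdhl, a dehydrogenase that strips methyl groups from the ring, went from 64.8, 70.2 and 69.9 to 48.7, 47.4 and 49.9 CPM and fell by 0.47, and Dhcr7, the reductase of the last step, went from 112, 115 and 115 to 84.1, 90.7 and 90.6 CPM and fell by 0.35. Msmo1, the sterol methyl oxidase, fell by 0.16. Cyp51, the lanosterol demethylase, fell by 0.11 (adjusted p = 0.0111), a call that was lost without control library 1 (log2 -0.095, adjusted p = 0.0589). Ebp, the sterol isomerase, was the exception: its libraries read 66.5, 66 and 63.4 CPM in controls and 83.9, 81.6 and 82.3 CPM in knockouts, 1.28-fold higher (log2 0.35 ± 0.06, adjusted p = 7.12e-06). Hsd17b7, a sterol ketone reductase, and Sc5d, a sterol desaturase, were not called, with log2 differences of 0.07 ± 0.05 and -0.08 ± 0.06.

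The regulators moved less than the leading enzymes. Srebf1 codes for the SREBP form that mainly drives fatty acid genes, and Srebf2 for the form that mainly drives sterol genes. Srebf1 read 279, 295 and 289.7 CPM in controls against 235, 237 and 240.4 CPM in knockouts (1.2-fold lower, log2 -0.26 ± 0.04, adjusted p = 2.13e-06). Srebf2 read 400.4, 412 and 409 CPM against 354, 358 and 357 CPM (1.13-fold lower, log2 -0.18 ± 0.03, adjusted p = 5.62e-05). Neither pair of groups overlapped. Scap went from 97.5, 98.7 and 103 to 83.6, 77.6 and 75.9 CPM and fell by 0.32, and Insig1, itself a classic SREBP target, went from 159, 165 and 157 to 133, 133 and 136 CPM and fell by 0.24. Insig2, which is controlled apart from SREBP, went the other way, from 16.9, 15.4 and 15.4 to 18.3, 23.3 and 20.1 CPM (1.31-fold higher, log2 0.39 ± 0.08, adjusted p = 8.52e-05).

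All 5 listed genes of fatty acid synthesis fell in RNA, while further fatty acid genes, counted below, went both ways. Scd1 (ENSMUSG00000037071.2, chr19:44394450-44407709) is a desaturase that puts the double bond into stearate and palmitate. It had the largest fall of all members: 138, 142 and 141 CPM in controls and 73, 76.8 and 77.6 CPM in knockouts, 1.83-fold lower (log2 -0.87 ± 0.05, adjusted p = 1.55e-14). Acly, which cleaves citrate to cytosolic acetyl-CoA, read 736, 751 and 753 CPM against 528, 544 and 520.0 CPM (1.39-fold lower, log2 -0.48 ± 0.03, adjusted p = 1.6e-13). Fasn, the fatty acid synthase, read 1003, 999.5 and 1098 CPM against 799, 811 and 736 CPM, again without overlap (1.31-fold lower, log2 -0.39 ± 0.06, adjusted p = 1.47e-06). Scd2, a close paralog of Scd1, and Acaca, the acetyl-CoA carboxylase, fell by 0.32 and 0.24. The split of reads between Scd1 and Scd2 is uncertain, because the sources used here do not say how shared reads were assigned. Among the sterol exporters Abcg1 read 72.8, 76.1 and 76.5 CPM against 44.8, 47.3 and 48.2 CPM (1.59-fold lower, log2 -0.67 ± 0.05, adjusted p = 1.76e-12). Abca1 did not pass the test (0.13 ± 0.16, adjusted p = 0.527), nor did the LXR genes Nr1h2 and Nr1h3 or Mylip, an LXR target whose product marks lipoprotein receptors for breakdown.

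**Figure D1:**
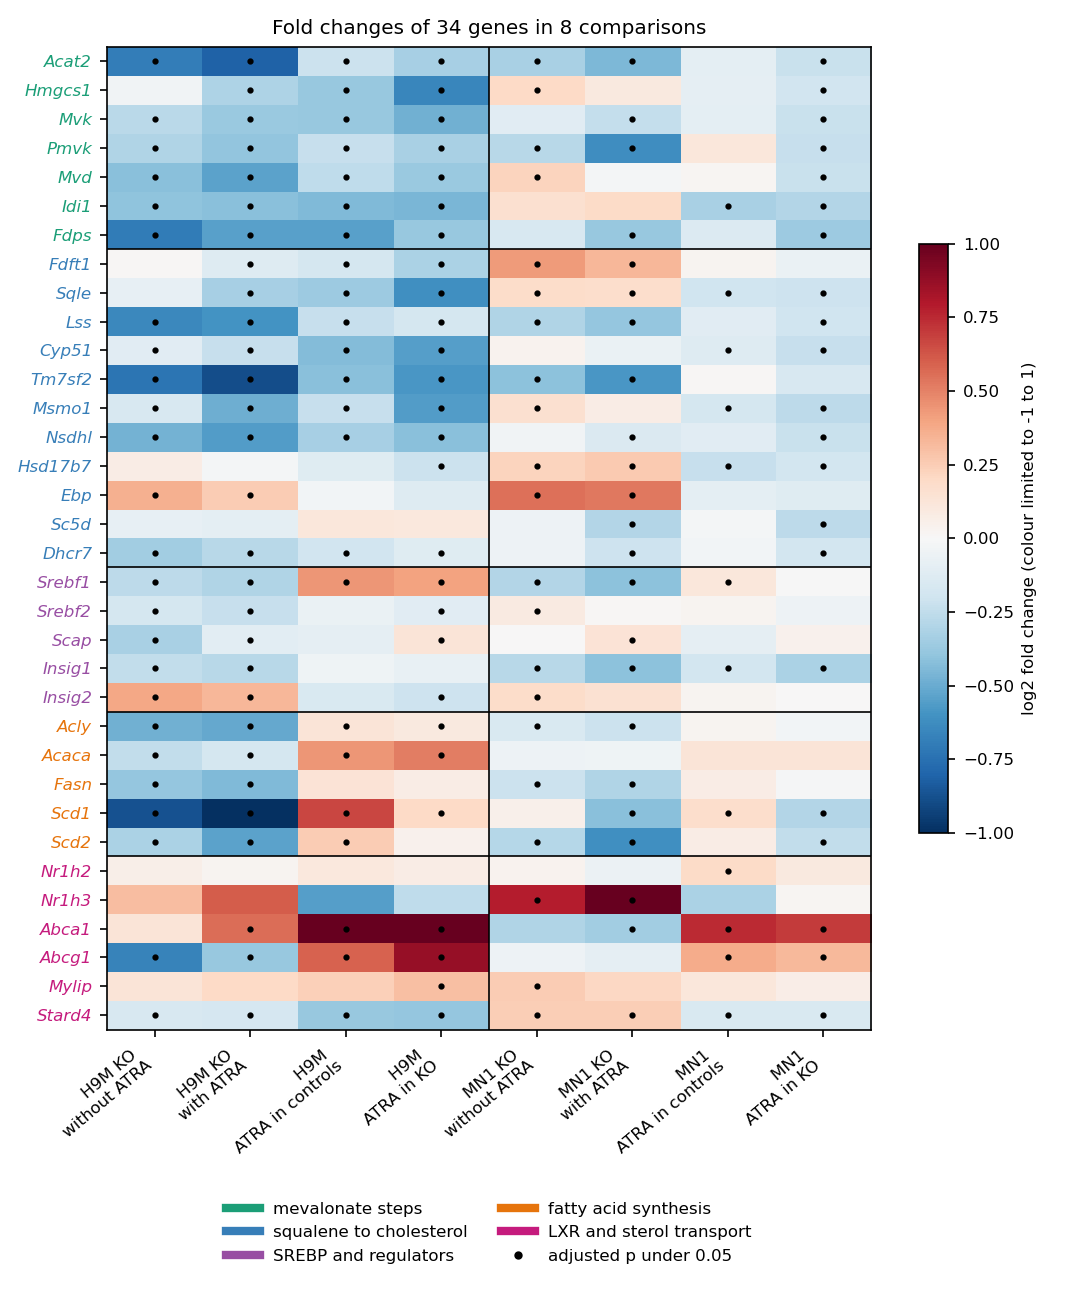
Log2 fold changes of the 34 genes (listed down the side, coloured by role) in the 8 comparisons of knockout with control and of ATRA with no ATRA (columns, H9M left and MN1 right of the line). Blue is lower and red is higher, with the colour limited to -1 to 1, and a dot marks an adjusted p under 0.05. The sterol enzymes are blue through all 4 H9M columns apart from Ebp and Sc5d and a few pale entries of other enzymes, while the 5 fatty acid genes are blue with knockout and red with ATRA in H9M controls.

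With ATRA present, the H9M knockout comparison used other libraries and gave more falls: 26 of 34 members fell and 3 rose (Ebp, Insig2 and Abca1), beside 24.4% and 26.7% of all genes tested, with a median log2 fold change of -0.30. Of the sterol enzymes 15 of 18 fell. Scd1 read 204, 209 and 238 CPM in ATRA-treated controls and 79.5, 93.1 and 84.4 CPM in ATRA-treated knockouts, 2.53-fold lower (log2 -1.34 ± 0.05, adjusted p = 2.73e-19). Scd2 was at 2455, 2286 and 2469 CPM against 1629, 1692 and 1652 CPM (1.45-fold lower, log2 -0.54 ± 0.03, adjusted p = 2.19e-15). The groups of both desaturases were well apart. Tm7sf2 fell from 27.9, 28.3 and 28.7 to 13.9, 15.3 and 16.4 CPM (log2 -0.89 ± 0.06, adjusted p = 5.36e-13), and Acat2 from 61.4, 61.7 and 65 to 37.1, 35.5 and 34.9 CPM (log2 -0.81 ± 0.04, adjusted p = 9.7e-16). Hmgcs1, which had not passed without ATRA, went from 90.4, 82.7 and 84.7 to 73.6, 69.4 and 65.6 CPM (log2 -0.31 ± 0.05, adjusted p = 3.25e-06). Abca1 was higher in the knockouts here, at 34.5, 48.5 and 45.5 CPM against 29.8, 30.1 and 27.7 CPM (log2 0.56 ± 0.10, adjusted p = 1.98e-05). The monocyte marker sum was 913-941 CPM in these controls and 3031-3134 CPM in these knockouts.

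ATRA alone split the members of H9M control cells by role: sterol enzymes fell, while genes of fatty acid synthesis and the LXR targets Abca1, Abcg1 and Srebf1 rose. Of the 34 members 16 fell and 7 rose, beside 12.3% and 12.9% of all genes tested. Scaled by library totals alone, 36.3% of the calls over all genes were rises, against 51.1% with TMM scaling. All 7 genes of the mevalonate steps and 8 of the 11 later enzymes fell. Of the fatty acid genes 4 of 5 rose, with Fasn not passing at a log2 difference of 0.14 ± 0.06 (adjusted p = 0.0899). This comparison and the knockout comparison without ATRA share their 3 control libraries, so the 2 sets of changes are given side by side and not tested against each other.

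Within the sterol route the ATRA effect ran from -0.17 for Fdft1 to -0.54 for Fdps among the 15 enzymes that fell. Over all 18 it ran from -0.54 to 0.12. Cyp51 read 144, 143 and 135 CPM untreated and 105, 97.3 and 102 CPM treated (1.35-fold lower, log2 -0.43 ± 0.04, adjusted p = 1.81e-10). Hmgcs1 read 115, 114 and 115 CPM and 90.4, 82.7 and 84.7 CPM (1.3-fold lower, log2 -0.38 ± 0.05, adjusted p = 2.14e-07), and Sqle 165, 165 and 163 CPM and 129, 118 and 126 CPM (1.29-fold lower, log2 -0.36 ± 0.04, adjusted p = 5.25e-09). For these 3 enzymes every ATRA library lay below every library without it, although their knockout differences were -0.11, -0.03 and -0.08. Tm7sf2 (log2 -0.42 ± 0.06), Idi1 (-0.44 ± 0.09) and Mvk (-0.38 ± 0.07, from 32.1, 33.3 and 31.9 to 22.6, 26.4 and 24 CPM) fell to a like degree. Stard4, a soluble carrier of cholesterol and SREBP target, went with the enzymes, from 167, 160.4 and 161 to 128, 113 and 124 CPM (log2 -0.38 ± 0.04, adjusted p = 6.3e-08). Srebf2, Scap, Insig1 and Insig2 did not pass, with log2 differences of -0.06, -0.09, -0.04 and -0.15.

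The LXR target Abca1 (ENSMUSG00000015243.4, chr4:53030789-53159988), which loads cholesterol onto lipoprotein, had the largest ATRA response of the list. It stood at 6.21, 5.36 and 4.94 CPM in H9M controls without ATRA and at 29.8, 30.1 and 27.7 CPM with it, 5.45-fold higher (log2 2.45 ± 0.13, adjusted p = 9.65e-16). Abcg1, the second exporter, read 72.8, 76.1 and 76.5 CPM and 111, 108 and 109.9 CPM (1.5-fold higher, log2 0.59 ± 0.05, adjusted p = 4.3e-11). Srebf1 (ENSMUSG00000020538.15, chr11:60199084-60224186) read 279, 295 and 289.7 CPM and 367, 394 and 382 CPM (1.36-fold higher, log2 0.44 ± 0.04, adjusted p = 5.06e-10). In all 3 genes the ATRA libraries lay above the others without overlap. Mylip did not pass (log2 0.23 ± 0.11, adjusted p = 0.123), nor did the receptor genes Nr1h2 (0.11 ± 0.04) and Nr1h3 (-0.55 ± 0.27, at about 1 CPM). Scd1 rose from 138, 142 and 141 to 204, 209 and 238 CPM (1.59-fold higher, log2 0.67 ± 0.05, adjusted p = 1.11e-11) and Acaca from 167, 169 and 182 to 216, 239 and 230.0 CPM (1.36-fold higher, log2 0.44 ± 0.06, adjusted p = 5.1e-07). Scd2 rose by 0.26 ± 0.03 and Acly by 0.13 ± 0.03 on the log2 scale, with Acly at 736, 751 and 753 CPM untreated and 772, 807 and 809 CPM treated. The monocyte marker sum was lower with ATRA, 913-941 against 1479-1486 CPM. Of its 12 markers 4 fell, 3 rose and 5 were not called, beside 12.3% falls and 12.9% rises over all genes tested. Of 20 cell cycle genes 9 fell and 1 rose, and of 10 neutrophil markers tested 5 fell and 2 rose, beside the same shares. The part of these markers and cell cycle genes in the changes of the members was not tested.

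**Figure D2:**
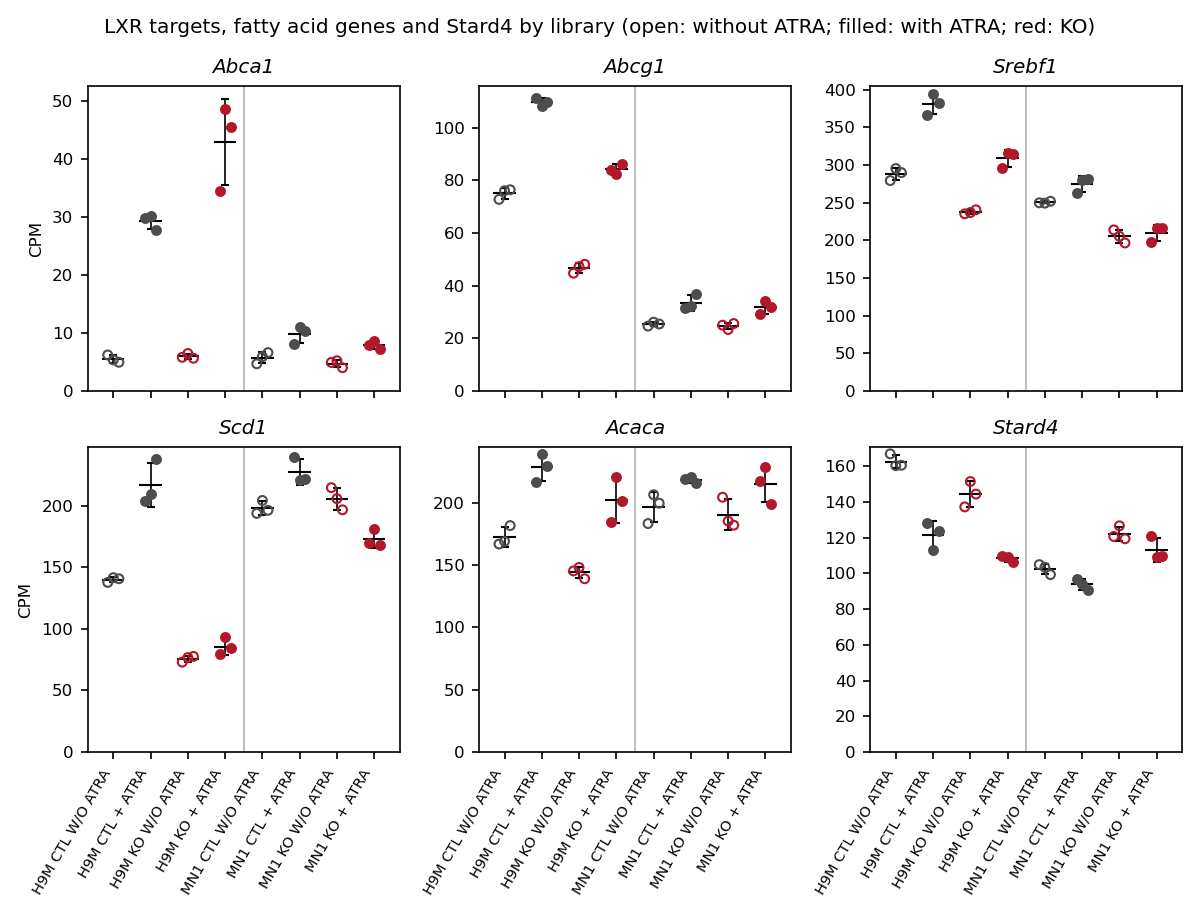
CPM of Abca1, Abcg1, Srebf1, Scd1, Acaca and Stard4 in every library of the 8 groups, with the y axis starting at 0. Points are libraries (open without ATRA, filled with ATRA, grey control, red knockout), bars are means and whiskers 1 SD of 3 libraries. In H9M, Abca1 stands at 4.94-6.46 CPM without ATRA and at 27.7-48.5 CPM with it, while in MN1 its highest library reaches 11.0 CPM.

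In H9M knockouts, ATRA lowered 19 of 34 members and raised 8, beside 15.4% and 13.9% of all genes tested. Without untreated knockout library 3 or treated knockout library 2 the rises numbered 5. Among the sterol enzymes 16 of 18 fell, leaving Ebp and Sc5d. Hmgcs1 went from 105, 116 and 111 to 73.6, 69.4 and 65.6 CPM (1.57-fold lower, log2 -0.65 ± 0.05, adjusted p = 2.24e-12). Sqle went from 149, 157 and 155 to 98.4, 99.6 and 99.2 CPM (log2 -0.61 ± 0.04, adjusted p = 3.93e-14), and Msmo1 from 93.1, 99 and 100.4 to 69.7, 64.7 and 61.8 CPM (log2 -0.56 ± 0.05, adjusted p = 7.52e-11). In these 3 enzymes the groups were apart. Abca1 went from 5.8, 6.46 and 5.64 CPM to 34.5, 48.5 and 45.5 CPM (7.32-fold higher, log2 2.87 ± 0.12, adjusted p = 4.45e-18), and Abcg1 from 44.8, 47.3 and 48.2 to 83.8, 82.5 and 86.4 CPM (log2 0.87 ± 0.05, adjusted p = 9.54e-15). Srebf1 (0.40 ± 0.04) and Acaca (0.51 ± 0.06) rose as well. Scd1 read 73, 76.8 and 77.6 CPM untreated and 79.5, 93.1 and 84.4 CPM treated (log2 0.20 ± 0.06, adjusted p = 0.00573), a call lost without treated knockout library 2 (log2 0.132, adjusted p = 0.09).

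Knockout and ATRA together put most sterol enzymes of H9M cells at their lowest. The mean of the knockouts with ATRA was the lowest of the 4 H9M groups for 16 of the 18 sterol enzymes, the exceptions being Ebp and Sc5d. Tm7sf2 had means of 38.9 ± 1.91 CPM (SD, n = 3) in untreated controls, 28.3 ± 0.409 CPM with ATRA, 23.2 ± 0.71 CPM with knockout and 15.2 ± 1.27 CPM with both. All 5 fatty acid genes had their highest mean in controls with ATRA and none had its lowest in knockouts with ATRA. In MN1 the knockouts with ATRA had the lowest mean for 10 of the 18 sterol enzymes and for 2 fatty acid genes. All 5 fatty acid genes had their highest MN1 mean in controls with ATRA too. The share of all genes with such an order was not counted. Of these 5 genes only Scd1 was called with ATRA in MN1 controls, and 4 did not pass. Whether the ATRA effect differed with knockout in H9M was tested by the interaction. It called 2 members above 0 and 5 below 0, beside 2.25% and 2.79% of all genes tested. Below 0 were Scd1 (-0.47 ± 0.07, adjusted p = 8.79e-05), Msmo1 (-0.33 ± 0.07, adjusted p = 0.00152), Hmgcs1 (-0.27 ± 0.07, adjusted p = 0.0106), Sqle (-0.25 ± 0.05, adjusted p = 0.00273) and Scd2 (-0.21 ± 0.04, adjusted p = 0.0014). The log2 ATRA effect was thus lower in knockouts than in controls for these 5 genes. Above 0 were Abcg1 (0.29 ± 0.07, adjusted p = 0.0101) and Scap (0.22 ± 0.06, adjusted p = 0.0332). The Hmgcs1 call was lost without treated knockout library 3 (log2 -0.234, adjusted p = 0.0517). The Scap call was lost in 7 of the fits that left out a library, with log2 values of 0.183 to 0.225, and in the fit on the H9M libraries alone (0.221, adjusted p = 0.067). Without each of those libraries its adjusted p was 0.0532 (untreated control 2), 0.0947 (untreated control 3), 0.0618 (treated control 1), 0.104 (treated control 3), 0.0754 (untreated knockout 2), 0.126 (untreated knockout 3) and 0.107 (treated knockout 3). The Abca1 interaction did not pass (0.43 ± 0.19, adjusted p = 0.25).

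**Figure D3:**
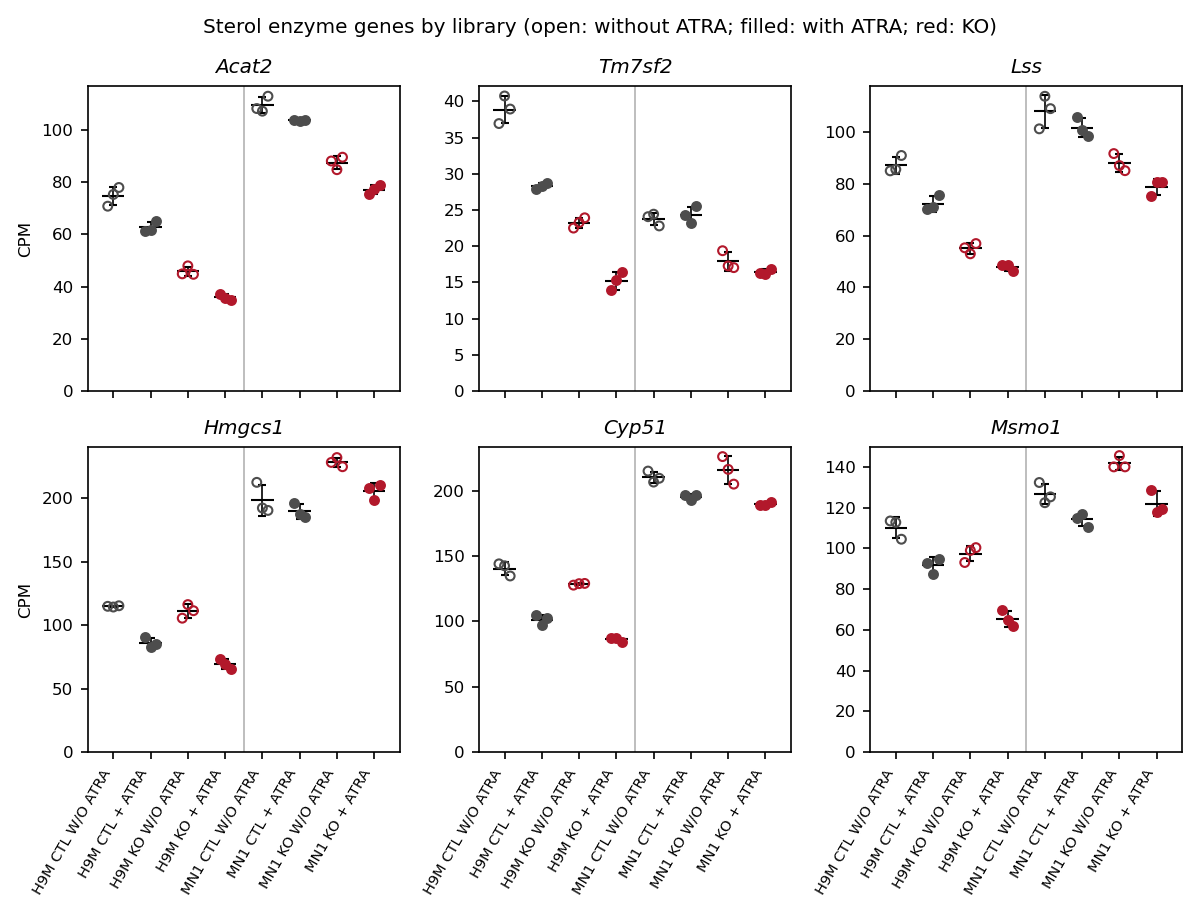
CPM of Acat2, Tm7sf2, Lss, Hmgcs1, Cyp51 and Msmo1 in every library of the 8 groups, with the y axis starting at 0. Points are libraries (open without ATRA, filled with ATRA, grey control, red knockout), bars are means and whiskers 1 SD of 3 libraries. Without ATRA, the H9M log2 change with knockout is -0.65 to -0.73 in the upper 3 genes and -0.03 to -0.16 in the lower 3. In H9M controls the change with ATRA is -0.22 to -0.43 in all 6. All 6 are lowest in H9M with both, as for Tm7sf2 at 13.9-16.4 CPM against 36.9-40.7 CPM in untreated controls.

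Because 12 of the 18 sterol enzymes fell with knockout and 15 with ATRA in H9M, the members' promoters were searched for the letters of known elements, on both strands, in RefSeq windows (GRCm38.p6) of 250 bases before to 50 bases after the gene start. Windows were found for 27 of the 34 members. The box read by NF-Y, a factor that works beside SREBP at sterol promoters, is CCAAT, or ATTGG on the other strand. It was present in 14 of 15 sterol enzymes with a window (93.3%) and in 21 of 27 members (77.8%), while 42.7% of 10316 tested genes and 37.4% of all 32851 windows held it. Acat2, which fell with knockout in H9M without ATRA (log2 -0.69), was the sterol enzyme without it. Ebp, which rose in that comparison, and Hsd17b7 and Sc5d, which were not called in it, held the box as well. Whether the box goes with the falls was not tested. A strict sterol response element, TCACNCCAC, was in 1 member, Hmgcs1 (3.7%), and in 1.42% of tested genes. The E-box CACGTG, another SREBP-binding sequence, was in 6 members (22.2%) and in 11.7% of tested genes, and the GC box GGGCGG in 22 members (81.5%) and in 67.1% of tested genes. The LXR half-site AGGTCA repeated after 4 bases, with up to 2 mismatches in its 12 letters, was in 1 member, Dhcr7, and in 2.63% of tested genes. A match of this kind describes the letters only.

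The stretches below carry these letters and are printed 5′ to 3′ on the strand of the gene, with the NF-Y box, the strict sterol element and the E-box in capitals. Hmgcs1, Idi1, Tm7sf2 and Cyp51 are enzymes that ATRA lowered in H9M controls, and Insig1 is a regulator that knockout lowered in both models. The Hmgcs1 stretch is chr13:119690101-119690340 on the plus strand, with the sterol element 137 to 129 bases before the start and NF-Y boxes on either side of it. Idi1 is chr13:8885531-8885605 (plus) and Tm7sf2 is chr19:6067863-6067927 (minus). Cyp51 is chr5:4104698-4104756 (minus) and Insig1 is chr5:28071166-28071346 (plus).
Hmgcs1: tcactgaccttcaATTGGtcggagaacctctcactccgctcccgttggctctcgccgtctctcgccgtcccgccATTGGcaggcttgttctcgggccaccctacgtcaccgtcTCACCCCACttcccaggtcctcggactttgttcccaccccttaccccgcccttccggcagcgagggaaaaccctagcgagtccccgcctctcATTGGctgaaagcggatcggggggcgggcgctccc
Idi1: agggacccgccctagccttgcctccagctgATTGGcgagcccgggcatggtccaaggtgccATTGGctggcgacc
Tm7sf2: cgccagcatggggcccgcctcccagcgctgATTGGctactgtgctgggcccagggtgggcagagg
Cyp51: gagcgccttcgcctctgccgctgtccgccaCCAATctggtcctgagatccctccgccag
Insig1: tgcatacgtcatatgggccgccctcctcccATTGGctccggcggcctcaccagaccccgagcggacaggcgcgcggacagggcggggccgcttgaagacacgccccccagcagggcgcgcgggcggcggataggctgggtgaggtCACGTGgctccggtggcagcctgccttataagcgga

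In MN1 cells without ATRA, knockout moved the members both ways. Of the 34, 12 rose and 9 fell, beside 28.7% and 26.3% of all genes tested. The falls were thus near the share over all genes and the rises not far above it. The median log2 fold change was -0.01 over the members and 0.01 over all genes. The rises of Srebf2, Insig2 and Mylip were lost in 3, 4 and 4 of the fits that left out a library. Among the sterol enzymes 7 rose and 4 fell. The rises were Ebp, Fdft1, Hsd17b7, Mvd, Hmgcs1, Sqle and Msmo1, and the falls were Tm7sf2, Acat2, Lss and Pmvk. Ebp read 38, 38.5 and 36.8 CPM in controls and 53.9, 56.4 and 56.5 CPM in knockouts (1.47-fold higher, log2 0.55 ± 0.06, adjusted p = 7.92e-09). Fdft1 read 61.1, 66.7 and 65.6 CPM and 87.1, 87.5 and 86.6 CPM (1.35-fold higher, log2 0.43 ± 0.04, adjusted p = 1.89e-09). Tm7sf2 read 24.1, 24.4 and 22.8 CPM and 19.4, 17.3 and 17 CPM (1.33-fold lower, log2 -0.41 ± 0.06, adjusted p = 1.42e-06). None of these 3 genes had overlapping groups. Acat2 went from 108, 107 and 113 to 88.1, 84.7 and 89.5 CPM (log2 -0.33 ± 0.04), Lss from 101, 114 and 109 to 91.7, 87.1 and 85.1 CPM (-0.30 ± 0.04), and Mvd from 45, 45.2 and 41.4 to 50.4, 51.2 and 51.9 CPM (0.22 ± 0.05). So Acat2, Lss and Tm7sf2 fell with knockout in both models, while Mvd fell in H9M and rose in MN1.

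Of the fatty acid genes, Scd2, Fasn and Acly fell in MN1 knockouts. Fasn read 844, 922 and 896 CPM in controls and 814, 749.6 and 733 CPM in knockouts (log2 -0.22 ± 0.06, adjusted p = 0.00201). Scd2 read 2167, 2228 and 2143 CPM and 1817, 1813 and 1744 CPM (log2 -0.29 ± 0.03, adjusted p = 2.27e-09). Scd1, by contrast, was at 194, 204 and 196 CPM and 215, 206 and 197 CPM and did not pass (log2 0.05 ± 0.05, adjusted p = 0.426). Srebf1 went from 249.7, 249 and 252 to 214, 205 and 196 CPM (log2 -0.29 ± 0.04, adjusted p = 4.07e-07), and Insig1 from 164, 165 and 162 to 137, 144 and 125 CPM (log2 -0.28 ± 0.04, adjusted p = 3.22e-07). Nr1h3, the LXR alpha gene, was scarce but higher in every knockout library, at 2.82, 3.53 and 3.16 CPM against 1.66, 2.16 and 1.64 CPM (1.73-fold higher, log2 0.79 ± 0.19, adjusted p = 0.000838). Stard4 went from 105, 103 and 99.4 to 121, 127 and 119 CPM (log2 0.25 ± 0.04, adjusted p = 1.98e-05). Abca1 and Abcg1 did not pass (-0.30 ± 0.16 and -0.05 ± 0.06).

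With ATRA present, 16 members fell and 7 rose in MN1 knockouts, beside 28.6% falls and 28.6% rises over all genes tested. Under RLE scaling the members split into 16 falls and 12 rises, under library totals alone into 16 and 10, and in DESeq2 into 16 and 11. The falls were led by Pmvk, from 42.4, 41.7 and 43.3 to 27.1, 31 and 26.3 CPM (log2 -0.62 ± 0.06, adjusted p = 4.14e-10), Scd2, from 2356, 2308 and 2338 to 1531, 1589 and 1532 CPM (-0.61 ± 0.03, adjusted p = 7.47e-17), and Tm7sf2, from 24.3, 23.3 and 25.5 to 16.3, 16.2 and 16.9 CPM (-0.58 ± 0.06, adjusted p = 2.24e-09). Scd1 fell here, from 239, 221 and 222 to 169.5, 181 and 168 CPM (-0.42 ± 0.05, adjusted p = 2.7e-08). Nr1h3 rose from 1.64, 1.16 and 1.67 to 2.96, 3.05 and 3.83 CPM (2.19-fold higher, log2 1.13 ± 0.20, adjusted p = 1.23e-05), and Ebp from 34.9, 35.1 and 37.9 to 45.6, 56.8 and 55.2 CPM (0.53 ± 0.06, adjusted p = 1.87e-08). In each of these 6 genes the groups were apart.

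The knockout effects of the models were compared by the difference between them (MN1 minus H9M, without ATRA). It was called above 0 for 19 members and called below 0 for none. Over all genes tested, 14.2% were called above 0 and 14.2% below. The members had a median of 0.27 and ran from -0.43 to 0.92. In edgeR 0 members were below 0 at an unadjusted p under 0.05, and DESeq2 called 0 below 0. A value above 0 means that knockout lowered the gene less, or raised it more, in MN1. Of the 18 sterol enzymes 13 were called above 0, and the lowest value among the 18 was 0.03. Scd1 had the largest difference (0.92 ± 0.07, adjusted p = 2.45e-11), followed by Mvd (0.64 ± 0.07, adjusted p = 1.26e-08), Abcg1 (0.62 ± 0.08, adjusted p = 2.03e-07) and Idi1 (0.56 ± 0.13, adjusted p = 0.00101). Idi1 read 49.2, 44.5 and 39.3 CPM in H9M controls and 29.95, 34.7 and 34.8 CPM in H9M knockouts, against 57, 46.8 and 49.6 and 54.7, 62 and 54.7 CPM in MN1. Among the genes that fell in both models the falls of Acat2, Lss and Tm7sf2 were smaller in MN1 by 0.36, 0.35 and 0.32. Srebf1, Insig1 and Scd2 had differences of -0.03 ± 0.06, -0.03 ± 0.05 and 0.03 ± 0.04 that did not pass (adjusted p = 0.798, 0.72 and 0.642).

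**Figure D4:**
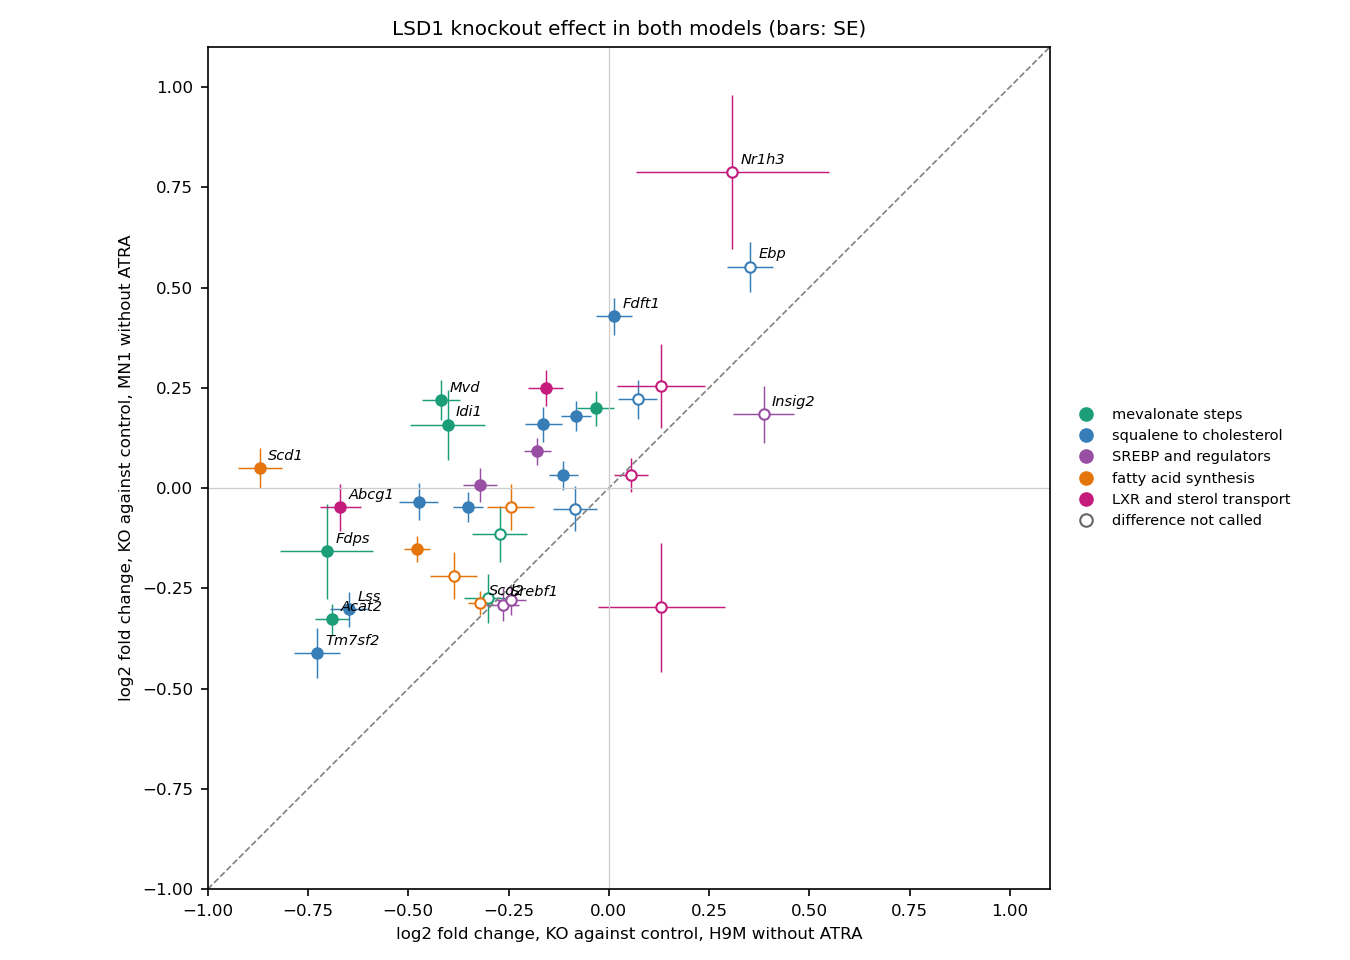
Log2 fold change of knockout against control without ATRA in H9M (x axis) and MN1 (y axis) for the 34 genes, coloured by role, with SE as bars and a dashed line where both models are equal. Filled points are called in the difference between the models. The 19 filled points all lie above the line, with Scd1 farthest from it at -0.87 in H9M and 0.05 in MN1.

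ATRA in MN1 controls changed fewer members: 7 fell and 5 rose, beside 10.4% and 11.4% of all genes tested. Scaled by library totals alone, 63.6% of the calls over all genes were rises, against 52.2% with TMM scaling. The exporters again had the largest called changes. Abca1 read 4.68, 5.91 and 6.62 CPM untreated and 8.15, 11 and 10.3 CPM treated (1.68-fold higher, log2 0.74 ± 0.14, adjusted p = 0.000176), and Abcg1 24.7, 26.2 and 25.4 CPM and 31.4, 32.2 and 36.9 CPM (1.29-fold higher, log2 0.37 ± 0.06, adjusted p = 9.56e-06). Nr1h2, the LXR beta gene, rose by 0.19 ± 0.04 (adjusted p = 0.00112). Insig1 read 164, 165 and 162 CPM and 145, 151 and 145 CPM (log2 -0.18 ± 0.04, adjusted p = 0.000638). In these 4 genes the groups did not overlap. Sterol enzymes had 5 falls, among them Sqle (148, 146 and 143 CPM to 133, 129 and 124 CPM, log2 -0.20 ± 0.04, adjusted p = 0.000125) and Hsd17b7 (log2 -0.23 ± 0.05). The falls of Idi1 (-0.33 ± 0.09), Cyp51 (-0.13 ± 0.04) and Msmo1 (-0.17 ± 0.04) were lost without untreated control library 1, with log2 values of -0.235, -0.105 and -0.131 (adjusted p = 0.0773, 0.0682 and 0.0561). Scd1 read 194, 204 and 196 CPM and 239, 221 and 222 CPM (log2 0.18 ± 0.05, adjusted p = 0.0112), a call lost without treated control library 1 (0.134, adjusted p = 0.0969). Srebf1 was at the threshold (log2 0.11 ± 0.04, adjusted p = 0.0491) and did not pass in the fits without untreated control libraries 1, 2 or 3 or treated control libraries 2 or 3 (adjusted p of 0.0851, 0.131, 0.0893, 0.15 and 0.171, log2 0.092 to 0.117).

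In MN1 knockouts ATRA lowered 19 members and raised 2, Abca1 and Abcg1, beside 10.4% and 8.42% of all genes tested. Over all genes 44.7% of the calls were rises, and 67.1% under library totals alone or 55.0% under RLE scaling. Under library totals alone the members had 16 falls and 4 rises. Of the sterol enzymes 15 of 18 fell, by amounts from -0.18 ± 0.04 (Dhcr7) to -0.36 ± 0.13 (Fdps). Cyp51 went from 226, 216 and 205 to 189, 189 and 191 CPM (log2 -0.23 ± 0.04, adjusted p = 1.91e-05), and Msmo1 from 140.1, 146 and 140.1 to 129, 118 and 119 CPM (-0.26 ± 0.04, adjusted p = 5.93e-05). Insig1 fell from 137, 144 and 125 to 112, 111 and 113 CPM (-0.31 ± 0.04, adjusted p = 3.98e-07). The groups of these 3 genes were apart. Scd1 and Scd2 fell by 0.29 and 0.25, in place of the log2 differences of 0.18 and 0.08 in controls. The Fdps call, at 5.57, 7.93 and 6.75 CPM untreated and 5.61, 5.62 and 5.02 CPM treated (adjusted p = 0.0432), was lost without any single library of its 2 groups but untreated knockout 1. The values were log2 -0.232 (without untreated knockout 2), -0.359 (untreated knockout 3), -0.384, -0.386 and -0.307 (treated knockouts 1, 2 and 3), with adjusted p of 0.297, 0.0993, 0.0665, 0.0703 and 0.162. The call was also lost under RLE scaling (-0.342, adjusted p = 0.0591), library totals alone (-0.320, adjusted p = 0.0876) and DESeq2 (-0.341, adjusted p = 0.0578). The interaction in MN1 called 3 members below 0 and none above, beside 1.68% and 1.09% of all genes tested. Above 0, edgeR had 1 member at an unadjusted p under 0.05 and DESeq2 called 0. Below 0 were Scd1 (-0.47 ± 0.07, adjusted p = 0.000101), Scd2 (-0.33 ± 0.04, adjusted p = 1.05e-05) and Pmvk (-0.35 ± 0.09, adjusted p = 0.0205). The Pmvk call was lost in 6 fits that left out a library, with log2 values of -0.335 to -0.299. Its adjusted p was then 0.0694 (untreated control 3), 0.0506 (treated control 3), 0.0775 and 0.0567 (untreated knockouts 1 and 2), and 0.0665 and 0.0852 (treated knockouts 1 and 3). Both desaturases were thus called below 0 in the interaction of each model.

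The ATRA effect in controls was called different between the models for 16 members. The difference (MN1 minus H9M) was called above 0 for 11 and below 0 for 5, beside 6.64% and 7.15% of all genes tested. Under RLE scaling these counts were 8 and 6, in DESeq2 10 and 7, and the share of values above 0 among the calls of all genes went from 48.2% to 71.2% under library totals alone. Without untreated H9M control 2 the members called above 0 numbered 6. They numbered 7 without untreated H9M control 3, treated H9M control 1, untreated MN1 control 1 or treated MN1 control 1. All 10 sterol enzymes called were above 0, so the ATRA effect was less negative or more positive in MN1, led by Tm7sf2 (0.43 ± 0.08, adjusted p = 0.000338), Pmvk (0.34 ± 0.08, adjusted p = 0.00426) and Cyp51 (0.30 ± 0.05, adjusted p = 9.84e-05). Pmvk had means of 50.1 ± 1.65 CPM untreated and 41.6 ± 1.42 CPM treated in H9M controls, and of 38.7 ± 1.17 and 42.5 ± 0.788 CPM in MN1 (SD, n = 3). Below 0 were Abca1 (-1.70 ± 0.19, adjusted p = 1.2e-07), Scd1 (-0.49 ± 0.07, adjusted p = 9.01e-06), Srebf1 (-0.33 ± 0.06, adjusted p = 9.95e-05), Acaca (-0.31 ± 0.08, adjusted p = 0.00789) and Scd2 (-0.18 ± 0.04, adjusted p = 0.0041). The Scd2 call was lost under library totals alone (-0.119, adjusted p = 0.0526). The rises of Abca1, Scd1 and Srebf1 under ATRA were thus larger in H9M. For Abcg1 the difference did not pass (-0.21 ± 0.07, adjusted p = 0.0517).

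Between the untreated controls of the models, 17 members were lower in MN1 and 7 higher, beside 35.9% and 37.6% of all genes tested, and 17 and 14 under library totals alone. Abcg1 differed most (72.8, 76.1 and 76.5 CPM in H9M and 24.7, 26.2 and 25.4 CPM in MN1, log2 -1.65 ± 0.05, adjusted p = 2.58e-22), then Mvd (-1.15 ± 0.05), Ebp (-0.88 ± 0.06), Tm7sf2 (-0.80 ± 0.06) and Stard4 (-0.75 ± 0.04). Higher in MN1 were Hmgcs1 (115, 114 and 115 CPM in H9M and 212, 192 and 190.3 CPM in MN1, log2 0.70 ± 0.04, adjusted p = 9.1e-15), Cyp51 (0.49 ± 0.04), Acat2 (0.46 ± 0.04) and Scd1 (0.41 ± 0.05). Abca1 started at about the same level, at -0.02 ± 0.16 on the log2 scale (adjusted p = 0.914). Neighbouring enzymes of the route thus differed in opposite directions, and these levels share the confounding of model with the code in the column names.

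Further genes around both routes were counted beside the members. Of 29 further sterol genes, which serve storage, uptake, trafficking and SREBP processing, 12 rose and 6 fell with H9M knockout without ATRA (26.1% and 25.4% of all genes tested), and 11 rose and 7 fell in MN1 (28.7% and 26.3%). The falls were thus near or below the share over all genes in both models. Soat1, which esterifies cholesterol for storage, went from a mean of 93.03 to 210.4 CPM in H9M (log2 1.19 ± 0.05, adjusted p = 4.6e-19), and Stard5, a sterol carrier, from 9.78 to 23.3 CPM (1.27 ± 0.08, adjusted p = 7.79e-15). Lipa, the lysosomal lipase that frees cholesterol from its esters, went from 24 to 74.1 CPM in MN1 knockouts (1.62 ± 0.05, adjusted p = 1.24e-21). Of 26 further fatty acid genes, 11 fell and 6 rose with H9M knockout, and 12 rose and 6 fell in MN1, beside the same shares over all genes, which the 6 in either model did not exceed. ATRA in H9M controls lowered 8 of these and raised 5, beside 12.3% and 12.9% of all genes tested. Dgat1, which makes triglyceride, rose from 121 to 194 CPM (0.72 ± 0.04, adjusted p = 1.17e-16), while Dgat2, an unrelated enzyme for the same reaction, fell from 62.0 to 35.0 CPM (-0.79 ± 0.05, adjusted p = 1.61e-13). Of 9 receptors and cofactors 7 were tested. Pparg, the nuclear receptor that governs lipid storage, went from 0.769 to 14.1 CPM with H9M knockout (4.21 ± 0.16, adjusted p = 1.47e-19) and from 0.0434 to 1.1 CPM in MN1 (4.46 ± 0.46, adjusted p = 1.56e-09). Rxra, which encodes an RXR form that pairs with LXR and the retinoic acid receptors, had a mean of 27.0 CPM in untreated H9M controls. Its mean was 0.289 CPM in untreated MN1 controls (-6.63 ± 0.17, adjusted p = 5.05e-25). Of the other RXR genes, Rxrg had no count in any group, and values of Rxrb are not given here.

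H3K4me2, a histone mark at active and poised promoters and a substrate of LSD1, was measured by ChIP-seq in lineage-negative bone marrow of C57BL/6 mice, in 1 GFI1-WT and 1 GFI-KD library. GFI1 is a repressor that recruits LSD1, and the labels do not say how the KD animals were made. With 1 library each there is no test, and the intervals are 95% exact ones that cover counting error only. Reads were counted within 1 kb of the RefSeq gene start for 26 members with a start given and at least 50 reads over both libraries. The ratio of GFI-KD to GFI1-WT had a median log2 of -0.05 over these members and -0.02 over 13686 genes, of which the middle 90% lay between -0.52 and 0.97. Of the members 14 lay below the median of all genes and 12 above. Nr1h3 had the highest ratio, with 98 reads in GFI1-WT and 188 in GFI-KD (10.95 and 19.7 reads per 1000000, ratio 1.8, interval 1.4 to 2.32). Abca1 had 286 and 379 reads (ratio 1.24, 1.06 to 1.45) and Hsd17b7 206 and 278 (1.27, 1.05 to 1.52), while Nsdhl had 154 and 119 (0.725, 0.566 to 0.927). On the log2 scale these ratios were 0.85 (Nr1h3), 0.31 (Abca1), 0.34 (Hsd17b7) and -0.46 (Nsdhl), all within the middle 90% of all genes. How many of all genes have an interval that leaves out a ratio of 1 was not counted. The intervals of the other 22 members included a ratio of 1. Among these were Tm7sf2 (342 and 393 reads, 1.08), Acat2 (170 and 174 reads, 0.96), Lss (299 and 296 reads, 0.929) and Fasn (367 and 380 reads, 0.971).

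**Figure D5:**
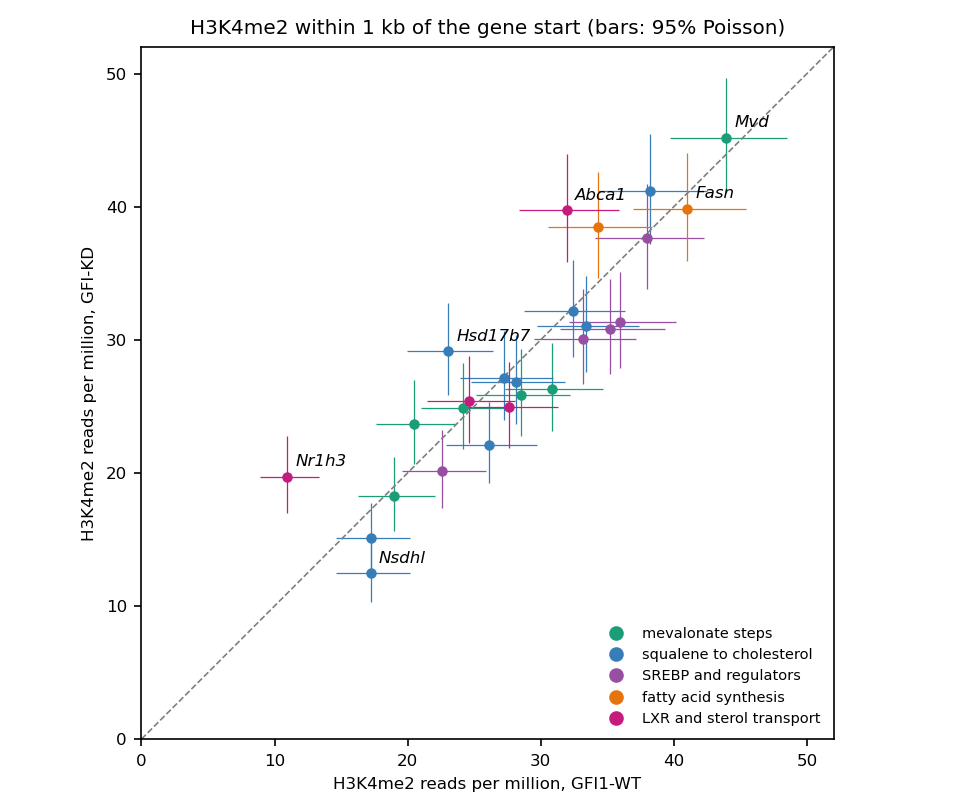
H3K4me2 reads per 1000000 within 1 kb of the gene start in GFI1-WT (x axis) and GFI-KD (y axis) bone marrow for 26 members, coloured by role, with 95% exact Poisson intervals as bars and a dashed line of equality. Most points lie on the line within their bars, and Nr1h3, at 10.95 and 19.7, lies farthest above it in proportion.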

How the data were processed

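RNA-seq libraries were prepared from total RNA with a stranded kit and read as paired 100-base ends, per the labels. STAR 2.5.3 was the aligner and mm10 the build, per the submitters' processing notes. The table the authors deposited holds raw counts per gene and library, while the sources used here name no counting tool, annotation or strand. Genes with close paralogs or overlapping neighbours are therefore uncertain. Of its 48795 genes, 21762 have no count in any library, and 48349 Ensembl IDs matched a symbol. Counts were scaled by TMM, filtered by filterByExpr and fitted in edgeR 4.0.16 (R 4.3.3), with 24 libraries and 8 groups in 1 quasi-likelihood model (16 residual degrees of freedom, and a biological coefficient of variation of 4.01% in common). A total of 13 comparisons was tested two-sided, with Benjamini-Hochberg adjustment over all 14663 genes and a threshold of 0.05. Standard errors are the log2 fold change over the root of F. The edgeR fit was tested on simulated counts for 1 comparison, H9M knockout without ATRA. CPM use library totals alone.

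The deposited H3K4me2 tables list aligned reads with a score, which the values show to be a mapping quality. BWA (version not given), CASAVA 1.8.2 and bedtools 2.27.0 on mm10 (GRCm38) are named in the submitters' processing notes. Reads with a score of at least 10 were kept (8949072 of 9000433 and 9538627 of 9588899), and their 5′ ends were counted within 1000 bases of the RefSeq start. The members and all gene lists were chosen with earlier results of these data known. Library values are given for members with large changes, for Srebf1, Srebf2, Insig1, Fasn and Abca1, and for members whose change differed between models or with ATRA, with fewer named than the rule allows. Among further pathway genes, those with the largest called changes in a comparison are named. Alternatives were RLE scaling, library totals alone, no filter, DESeq2 1.42.0, the libraries of 1 model, a replicate block and leaving out each library, and for H3K4me2 all reads and other window sizes.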

Additional observations from a re-analysis of the deposited data

Results flagged for a closer look

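These results are called differences between models or between knockout and control, each tested in the same edgeR fit, on the log2 scale. The interaction of knockout and ATRA in H9M was -0.27 for Hmgcs1, -0.25 for Sqle, -0.33 for Msmo1, -0.47 for Scd1 and -0.21 for Scd2, and it was 0.22 for Scap and 0.29 for Abcg1. In MN1 it was -0.35 for Pmvk, -0.47 for Scd1 and -0.33 for Scd2. Scd1 thus had almost the same interaction in both models, although knockout without ATRA lowered it in H9M and did not pass in MN1.

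The knockout effect in MN1 minus that in H9M was above 0 in every called member. In the mevalonate steps it was 0.36 for Acat2, 0.23 for Hmgcs1, 0.64 for Mvd, 0.56 for Idi1 and 0.55 for Fdps. In the later steps it was 0.42 for Fdft1, 0.26 for Sqle, 0.35 for Lss, 0.15 for Cyp51, 0.32 for Tm7sf2, 0.32 for Msmo1, 0.44 for Nsdhl and 0.30 for Dhcr7. Outside the sterol enzymes it was 0.27 for Srebf2, 0.33 for Scap, 0.33 for Acly, 0.92 for Scd1, 0.62 for Abcg1 and 0.41 for Stard4. The Fdps call was lost without untreated MN1 knockout 2 (0.417, adjusted p = 0.0735). The Cyp51 call was lost without any single library of the 4 groups except untreated H9M control 3, MN1 control 1 and MN1 knockout 3 (adjusted p of 0.0513 to 0.132, values of 0.109 to 0.148), and with no filter on low counts (0.141, adjusted p = 0.112).

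The ATRA effect in MN1 controls minus that in H9M controls was 0.29 for Hmgcs1, 0.29 for Mvk, 0.34 for Pmvk, 0.27 for Mvd, 0.20 for Fdft1, 0.16 for Sqle, 0.30 for Cyp51, 0.43 for Tm7sf2, 0.22 for Nsdhl, 0.16 for Dhcr7 and 0.23 for Stard4. It was -0.33 for Srebf1, -0.31 for Acaca, -0.49 for Scd1, -0.18 for Scd2 and -1.70 for Abca1. The calls of Mvk, Fdft1, Sqle, Nsdhl and Dhcr7 were the least firm: each was lost in 5 to 9 of the 12 fits that leave out a library, with values of 0.222 to 0.304 for Mvk, 0.167 to 0.19 for Fdft1, 0.128 to 0.168 for Sqle, 0.18 to 0.213 for Nsdhl and 0.145 to 0.169 for Dhcr7 in those fits. Among the other settings, Mvk was also lost under RLE scaling (0.274, adjusted p = 0.0587) and in DESeq2 (0.274, adjusted p = 0.0512), Sqle under RLE scaling (0.148, adjusted p = 0.0587) and with no filter (0.173, adjusted p = 0.0647), and Dhcr7 under RLE scaling (0.151, adjusted p = 0.0566) and with no filter (0.176, adjusted p = 0.0769).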

How the results depend on the processing

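Every alternative total of called members kept within 1.5 times the reported one, but the rises taken alone did not in 6 comparisons. They went from 7 to 12 under RLE scaling and 11 in DESeq2 for MN1 knockout with ATRA, from 7 to 14 under library totals alone for MN1 against H9M controls, and from 2 to 4 under library totals alone for ATRA in MN1 knockouts. Members called above 0 in the H9M interaction went from 2 to 1 on the H9M libraries alone. The same held with the replicate block and without any of 7 single libraries. Leaving out single libraries took the rises with ATRA in H9M knockouts from 8 to 5 (2 libraries). It took the ATRA differences called above 0 from 11 to 6 or 7 (5 libraries). No named member changed direction under an alternative: 174 values lost their call and 3049 did not. The 3049 include the ratios of 4 members in each H3K4me2 alternative, which have no call and stayed within their interval. Leaving out each library in turn gave 24 to 26 called members for H9M knockout without ATRA (25 reported), 27 to 28 with ATRA (29), 18 to 23 for MN1 knockout (21), 17 to 19 for the difference in knockout effect (19) and 11 to 14 for the difference in ATRA effect (16). With the replicate block the last count was 16 and the count for H9M knockout without ATRA was 25. With the block the calls of Fdps for ATRA in MN1 knockouts (-0.356, adjusted p = 0.0546), Scap in the H9M interaction (0.218, adjusted p = 0.0542) Dhcr7 in the difference of ATRA effects (0.164, adjusted p = 0.0515), Scap for H9M knockout with ATRA (-0.103, adjusted p = 0.0688) and Msmo1 between the untreated controls (0.107, adjusted p = 0.0928) did not pass. Replicate numbers did not pair the libraries: the correlation of same-numbered libraries after removal of group means had a median of 0.007 in H9M and -0.001 in MN1, with 0 of 18 pairs over 0.1 in each. Scaling also shifted the balance of rises and falls over all genes in the ATRA comparisons, as given beside those counts, and the median over all genes between the untreated controls, from 0.00 to 0.09 under library totals alone. For H3K4me2, windows of 500 and 2000 bases gave medians of -0.03 and -0.06 over the members. Nr1h3, Fdps, Abca1 and Mylip are the members with the fewest counts, which limits the precision of their values.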
